A study of Mus musculus with 7 samples.

Results

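The genes described here encode the enzymes and carriers of glycolysis, the entry of pyruvate into mitochondria, the tricarboxylic acid (TCA) cycle and the pentose phosphate pathway. A list of 45 gene symbols was matched to the symbol column of a count table of 15415 genes, and 45 of 45 were found. They comprise 19 genes of glycolysis, 8 of pyruvate entry, 14 of the TCA cycle and 4 of the pentose phosphate pathway. RNA was sequenced from mouse back skin cells that a fluorescence sorter had collected as GFP-positive, CD45-negative and DAPI-negative, GFP standing for Lgr5, a receptor that marks stem cells of the hair follicle. The 4 Anagen samples came from mice of 35 days, when follicles grow, and the 3 Telogen samples from mice of 45 days, when follicles rest. Both groups were crosses of C57Bl6 and B10D2, and the back was shaved and treated with depilatory cream before trypsin was used to free the epidermis. RNA was taken with Trizol and amplified with the Ovation RNA-Seq System V2 in both groups. It is not stated if 1 mouse or several went into each sample, so the p-values speak of the variation among the 7 samples, some of which may be technical. Age and phase cannot be told apart, since every Telogen sample was older than every Anagen sample.

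Glycolysis splits glucose into pyruvate in the cytosol, where lactate dehydrogenase can turn pyruvate into lactate. The mitochondrial pyruvate carrier and the pyruvate dehydrogenase complex instead pass pyruvate on to the TCA cycle as acetyl-CoA, and the pentose phosphate pathway draws off glucose 6-phosphate to make NADPH and ribose. Mouse hair follicle stem cells are known for their use of lactate: deleting Ldha there blocks their activation, and deleting Mpc1 there speeds it.

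Total counts were 13719893 to 17042690 in Anagen and 5097457 to 6453337 in Telogen, so depth cannot be told apart from phase. A count of 3 in a library equalled 0.165 to 0.216 CPM in Anagen and 0.480 to 0.594 CPM in Telogen, CPM being counts divided by TMM-adjusted library totals and put on a shared scale. Lgr5 itself was read at 82.7, 82.2, 24.9 and 34.9 CPM in Anagen 1 to 4 and 446, 473 and 463 CPM in Telogen 1 to 3. The 10 cycling-cell genes summed to 281 to 381 CPM in Anagen and 1.96 to 14.5 CPM in Telogen, and 10 of 10 passed the test as higher in Anagen. A fibroblast list of 8 measured genes summed to 1087 and 1527 CPM in Anagen 1 and 2 but to 82.6 and 106 CPM in Anagen 3 and 4, against 110 to 152 CPM in Telogen (5 genes higher, 1 lower, with Dcn and Lum at 0 in every Telogen library). Suprabasal epidermal genes summed to 265 to 473 CPM in Anagen and 1058 to 1481 CPM in Telogen (6 of 7 lower in Anagen), and inner root sheath and shaft genes to 343 to 456 CPM in Anagen and 114 to 145 CPM in Telogen (7 of 10 tested higher). Leukocyte genes summed to 1.43 to 2.64 CPM in Anagen and 4.63 to 27.5 CPM in Telogen, with Cd3e, Cd3g, Cd207 and Tyrobp at 0 in every Anagen library. Endothelial genes summed to 2.16 to 10.6 CPM in Anagen and 0 to 2.49 CPM in Telogen, with Cdh5, Kdr, Tie1 and Emcn at 0 in every Telogen library, and muscle genes to 21.2 to 36.5 CPM in Anagen and 0 to 1.19 CPM in Telogen, with Myh1, Myh4, Myh11 and Cnn1 at 0 in every Telogen library. Kdr, Tie1, Emcn, Myh1, Myh11 and Cnn1 averaged only 0.0276 to 0.385 CPM in Anagen, less than 3 counts in Telogen, so their zeros show no difference. Pecam1 had 0, 3, 0 and 0 counts in Anagen 1 to 4 and 13, 0 and 2 counts in Telogen 1 to 3. Melanocyte genes summed to 16.6 to 24.7 CPM in Anagen and 166 to 319 CPM in Telogen, most of it Mitf in Telogen (Mitf lower and Pmel higher in Anagen), and sebocyte genes to 779 to 1082 CPM in Anagen and 394 to 564 CPM in Telogen (3 of 5 tested higher). Most of the sebocyte sum was Mgst1, at 772 CPM in Anagen and 348 CPM in Telogen on average. The bulge and hair germ list summed to 24596 to 29566 CPM in Anagen and 22686 to 32737 CPM in Telogen, with 4 of 12 higher and 7 lower. Most of it was Krt5 and Krt14 in Anagen (17000 and 5693 CPM on average, against 9115 and 831 CPM in Telogen). In Telogen most of it was Krt5, Krt15 and Postn, the last 2 at 8636 and 5424 CPM against 171 and 377 CPM in Anagen. Krt5, Krt14, Sox9 and Tcf7l1 were the higher genes, and Lgr5, Cd34, Krt15, Lhx2, Nfatc1, Postn and Fgf18 the lower. Immediate early genes, which respond to cell handling, summed to 2260.3 to 5051 CPM in Anagen and 3667 to 14798 CPM in Telogen, highest in Telogen 3 (5 of 8 lower in Anagen). The part of these other cell types and of handling in the values below was not tested. In bulk RNA, fewer cells of a type and less RNA per cell cannot be told apart.

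Several of the enzymes have near-identical copies elsewhere in the mouse genome, and the sources used here do not say how reads that match several places were counted. The share of a member's 31-base stretches that also occur in another GENCODE M21 transcript was 84.1% for Gapdh, which shares with 108 pseudogenes, 77.2% for Eno1, 68.3% for Pgk1, 48.5% for Pkm, 42.1% for Pgam1, 41.9% for Pdhb and 41.4% for Ldhb. It was at least 10% for 15 of 45 members and under 1% for 24. The others at or above 10% were Ldha (34.2%), Aldoa (34.2%), Gpi1 (32.6%), Mpc1 (28.99%), Suclg2 (28.1%), Taldo1 (25.2%), Tpi1 (17.4%) and G6pdx (14.8%). Gapdh, a very abundant message in most cells, had 10, 20, 12 and 14 counts in Anagen 1 to 4 and 1, 8 and 6 counts in Telogen 1 to 3. Eno1 had 0 counts in every Anagen library and 2, 0 and 2 counts in Telogen. Pgam1 had 5, 8, 5 and 9 counts in Anagen and 2, 1 and 2 counts in Telogen. The levels of the members with large shares are therefore uncertain. A gene on the other strand overlaps 18 of 45 members, and because the handling of strand is not given in the sources used here, reads of both cannot be told apart.

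The filter on low counts kept 43 of 45 members and left out Eno1 and Pgam1. Of the 43 tested, 11 were higher and 11 were lower in Anagen at an adjusted p under 0.05 (edgeR's quasi-likelihood test, Benjamini-Hochberg adjustment over 12266 genes), and 21 did not pass. That is 51.2% of the members tested, against 49.5% of all genes tested, and by direction all genes gave 25.8% higher and 23.7% lower. The share of members called was thus close to that of all genes. The median log2 fold change was 0.03 over the members tested and 0.09 over all genes tested. With a fold change of 2 or more also required, 6 members were higher and 8 were lower, where all genes gave 21.8% and 19.5%. Every Anagen library lay above every Telogen library for 11 of 43 members (29.8% of all genes) and below for 11 (24.8% of all genes). The members' summed level differed by less than its SD, at 3538 ± 84.1 CPM in Anagen and 3572 ± 180 CPM in Telogen (SD, n = 4 and n = 3). The genes that made up that sum differed. Of the 22 members called, 12 kept their call in all 13 other fits tried, which were Pfkp, Cs, Idh1, G6pdx and Pgd among the higher and Hk1, Pfkfb2, Mpc2, Idh2, Idh3a, Suclg2 and Mdh1 among the lower. The required fold change of 2 is a cut on the main fit and is not among those 13. Cs (1.87-fold) and Idh2 (1.94-fold) did not meet it.

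**Figure D1:**
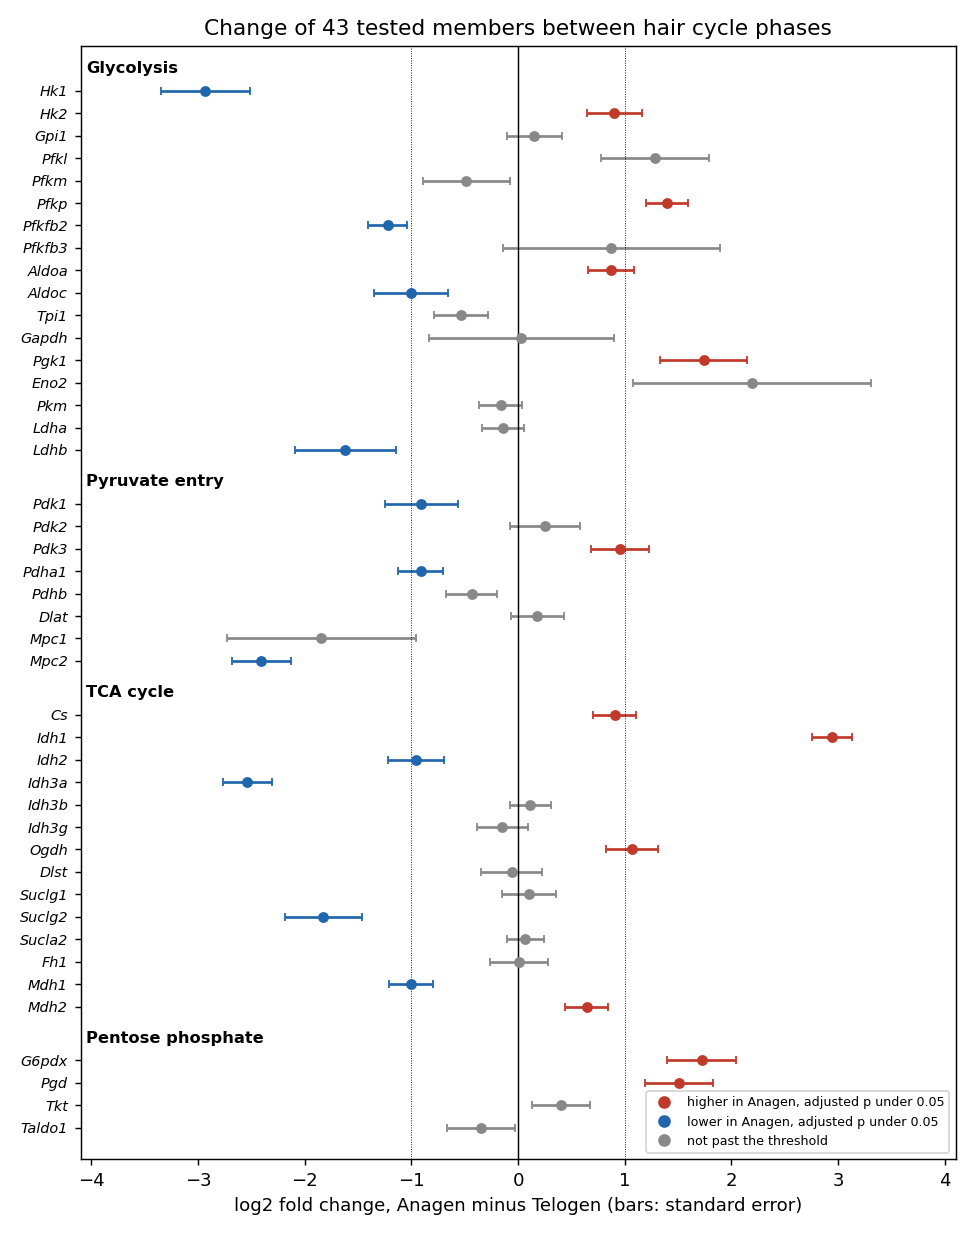
Log2 fold change (Anagen minus Telogen) of the 43 members tested, by role, with bars of 1 standard error from edgeR's quasi-likelihood fit. Points are coloured by call: 11 members lie to the right of 0 as higher, 11 to the left as lower, and 21 did not pass the test, with Idh1 (2.94) and Hk1 (-2.93) at the far ends among those that did.

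Hexokinase traps glucose in the cell by phosphorylating it, and its genes moved in opposite directions. Hk1, the form found in most tissues (NM_001146100, mm10 chromosome 10, 62268855 to 62340421), had 1.73, 3.91, 1.55 and 3.50 CPM in Anagen 1 to 4, against 21.9, 21.7 and 17.8 CPM in Telogen 1 to 3. Every Anagen library was well below every Telogen library, with counts of 24, 71, 24 and 49 against 123, 136 and 90. Hk1 was 7.62-fold lower in Anagen (log2 fold change -2.93 ± 0.42 (SE), edgeR adjusted p = 0.000224). Hk2, the form known for its induction in growing and tumour cells (NM_013820, mm10 chromosome 6, 82725027 to 82774454), had 34.9, 35.5, 38.96 and 46.4 CPM in Anagen 1 to 4, against 20.1, 25.1 and 17.2 CPM in Telogen 1 to 3. All Anagen libraries were above all Telogen libraries, and Hk2 was 1.87-fold higher (log2 fold change 0.90 ± 0.26 (SE), edgeR adjusted p = 0.0141). Among the fits without a replicate block, the Hk2 call was lost in 1. With offsets for GC content and gene length, the Hk2 log2 fold change was 0.46 (adjusted p = 0.150, with a range of 0.00458 to 0.150 over the 13 other fits).

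The promoters of the hexokinase genes are shown because the genes moved apart, and that of Idh1 because it had the highest level, as counted, of any member per length in Anagen. Each is 250 bases before to 50 after the RefSeq start of the gene (build GRCm38.p6, minus strand in each case), written 5′ to 3′ along the gene. Capitals mark ACGTG, a form of the core that hypoxia-inducible factors bind, or its reverse complement CACGT. Other forms of that core were not searched, so the counts below do not cover every promoter that holds it. The regions are chr10:62340372-62340671 for Hk1, chr6:82774405-82774704 for Hk2 and chr1:65186430-65186729 for Idh1.
Hk1: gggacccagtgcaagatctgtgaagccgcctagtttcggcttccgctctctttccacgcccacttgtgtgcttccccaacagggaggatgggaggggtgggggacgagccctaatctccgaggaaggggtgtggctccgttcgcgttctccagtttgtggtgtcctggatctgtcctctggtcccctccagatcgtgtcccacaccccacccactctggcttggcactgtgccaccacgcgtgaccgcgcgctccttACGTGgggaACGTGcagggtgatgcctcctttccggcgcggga
Hk2: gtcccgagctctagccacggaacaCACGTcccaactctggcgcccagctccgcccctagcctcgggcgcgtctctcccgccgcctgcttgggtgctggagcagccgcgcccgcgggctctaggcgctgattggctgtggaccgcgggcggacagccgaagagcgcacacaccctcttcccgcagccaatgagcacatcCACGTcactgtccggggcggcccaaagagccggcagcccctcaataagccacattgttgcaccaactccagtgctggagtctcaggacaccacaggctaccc
Idh1: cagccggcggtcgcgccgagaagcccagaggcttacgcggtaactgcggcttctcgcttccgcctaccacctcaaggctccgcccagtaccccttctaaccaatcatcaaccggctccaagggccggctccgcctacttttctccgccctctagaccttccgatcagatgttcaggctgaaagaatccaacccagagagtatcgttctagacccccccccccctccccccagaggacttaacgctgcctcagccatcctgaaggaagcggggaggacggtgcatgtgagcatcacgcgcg
The Hk1 and Hk2 windows each hold 2 matches to ACGTG or its reverse complement, and that of Idh1 holds 0. A promoter was found for 44 of 45 members (not Idh3a). ACGTG, on either strand, was in 16 of 44 members (36.4%) and in 24.6% of 11605 promoters of listed genes. By call, 6 of 11 promoters of higher members, 3 of 10 of lower members and 6 of 21 of members that did not pass held it. The E-box CACGTG, each of which contains ACGTG on both strands, was in 3 of 44 members (6.82%) and in 9.79% of all promoters. These are matches of letters and not sites of binding.

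Phosphofructokinase sets the pace of glycolysis, and its platelet-type gene rose. Pfkp (NM_019703, mm10 chromosome 13, 6579874 to 6648771) had 241, 239, 198 and 224 CPM in Anagen 1 to 4, against 94.01, 95.6 and 67.4 CPM in Telogen 1 to 3. The lowest Anagen library was more than 2 times the highest Telogen library, and the gene was 2.63-fold higher (log2 fold change 1.40 ± 0.20 (SE), edgeR adjusted p = 0.000239). Pfkl, the liver type, had 10.4, 15.8, 8.31 and 19.01 CPM in Anagen 1 to 4, against 8.90, 2.08 and 5.55 CPM in Telogen 1 to 3 and did not pass (log2 fold change 1.28 ± 0.51 (SE), edgeR adjusted p = 0.0566). Pfkm, the muscle type, had 10.3, 6.95, 5.73 and 11.1 CPM in Anagen 1 to 4, against 6.94, 17.1 and 11.7 CPM in Telogen 1 to 3 and did not pass either (log2 fold change -0.49 ± 0.41 (SE), edgeR adjusted p = 0.344). Pfkfb2 (NM_008825, mm10 chromosome 1, 130692255 to 130715821) makes and breaks down fructose 2,6-bisphosphate, the strongest activator of phosphofructokinase. It had 117, 105, 135 and 113 CPM in Anagen 1 to 4, against 316, 257 and 248 CPM in Telogen 1 to 3. All Anagen libraries were below all Telogen libraries, and Pfkfb2 was 2.33-fold lower (log2 fold change -1.22 ± 0.18 (SE), edgeR adjusted p = 0.000290). Pfkfb3, of the same family, had only 11, 27, 16 and 34 counts in Anagen and 0, 6 and 7 in Telogen and did not pass (log2 fold change 0.87 ± 1.02 (SE), edgeR adjusted p = 0.501).

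Among the enzymes that split and carry on the sugar phosphates, the aldolase genes also parted. Aldoa, the form found widely, had 94.9, 113, 120.0 and 79.2 CPM in Anagen 1 to 4, against 54.8, 55.5 and 56.7 CPM in Telogen 1 to 3. The groups did not overlap, and Aldoa was 1.83-fold higher (log2 fold change 0.87 ± 0.21 (SE), edgeR adjusted p = 0.00646). The call was lost without Anagen 1 and 2, the libraries with high collagen (adjusted p = 0.0600, range 0.000957 to 0.0600). The log2 fold change of Aldoa there was 0.84, and that fit of fewer libraries called 37% of all genes, against 49.5% in the main fit. Aldoc, best known in brain, was 2.01-fold lower (log2 fold change -1.004 ± 0.35 (SE), edgeR adjusted p = 0.0346), with 7.49, 7.83, 10.5 and 6.93 CPM in Anagen 1 to 4, against 10.1, 21.1 and 18.03 CPM in Telogen 1 to 3. Anagen 3 was above Telogen 1, so the groups overlapped, and the Aldoc call was lost in 7 of 13 other fits (range 0.0114 to 0.188), among them those without Anagen 1, 2 or 4 (adjusted p = 0.0805, 0.0745 and 0.0652) and without Telogen 2 or 3 (0.126 and 0.0796). Pgk1, which makes the first ATP of the pathway (NM_008828, mm10 chromosome X, 106187100 to 106203699), had 10.9, 10.9, 7.41 and 7.72 CPM in Anagen 1 to 4, against 2.85, 3.04 and 2.38 CPM in Telogen 1 to 3. These low levels, which are uncertain because 68.3% of the transcript is shared with copies, did not overlap. Pgk1 was 3.34-fold higher (log2 fold change 1.74 ± 0.41 (SE), edgeR adjusted p = 0.00496), a call lost without Anagen 1 and 2 (adjusted p = 0.0938, range 0.000601 to 0.0938). Its log2 fold change there was 1.45. Gpi1 (log2 fold change 0.15 ± 0.26 (SE), edgeR adjusted p = 0.651), Tpi1 (log2 fold change -0.54 ± 0.25 (SE), edgeR adjusted p = 0.0991), Eno2 (log2 fold change 2.19 ± 1.12 (SE), edgeR adjusted p = 0.125) and Pkm (log2 fold change -0.16 ± 0.20 (SE), edgeR adjusted p = 0.515) did not pass. Eno2 had 40, 11, 15 and 35 counts in Anagen and 2, 0 and 4 counts in Telogen. Tpi1 had 27.4, 43.3, 33.4 and 26.4 CPM in Anagen 1 to 4, against 44.7, 51.5 and 45.97 CPM in Telogen 1 to 3, so its groups did not overlap although the test was not passed.

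Lactate dehydrogenase links glycolysis to lactate. Ldha, whose subunit favours the making of lactate, had 171, 182, 157 and 182 CPM in Anagen 1 to 4, against 234, 191 and 147 CPM in Telogen 1 to 3. The Anagen libraries lay within the range of the Telogen libraries, and Ldha did not pass (log2 fold change -0.14 ± 0.20 (SE), edgeR adjusted p = 0.585). The 95% interval of that log2 fold change was -0.57 to 0.30, so a change of that size in either direction remains possible. Ldhb, whose subunit favours the use of lactate, had 4.83, 7.33, 8.57 and 2.50 CPM in Anagen 1 to 4, against 18.5, 25.4 and 9.71 CPM in Telogen 1 to 3. All Anagen libraries were below all Telogen libraries, and Ldhb was 3.08-fold lower (log2 fold change -1.62 ± 0.47 (SE), edgeR adjusted p = 0.0152). Of the Ldhb transcript, 41.4% is shared with another gene, which makes its level uncertain. Among the fits without a replicate block, the Ldhb call was lost with GC and length offsets (adjusted p = 0.0556), without Telogen 2 (0.0703) and without Anagen 1 and 2 (0.0748), with a range of 0.00254 to 0.0748. The Ldhb log2 fold change without Anagen 1 and 2 was -1.69. Over glycolysis as a whole, 4 of 17 members tested were higher (Hk2, Pfkp, Aldoa, Pgk1), 4 were lower (Hk1, Pfkfb2, Aldoc, Ldhb) and 9 did not pass, a share called of 47.1% against 49.5% of all genes. The median log2 fold change was 0.03, and the summed level was 833 ± 28.7 CPM in Anagen and 848 ± 92.8 CPM in Telogen. Genes with uncertain levels, such as Gapdh, Eno1, Pgam1 and Pgk1, added little to that sum. Gapdh added 0.899 CPM in Anagen and 0.882 CPM in Telogen on average, so the sum is not a level of the whole pathway.

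**Figure D2:**
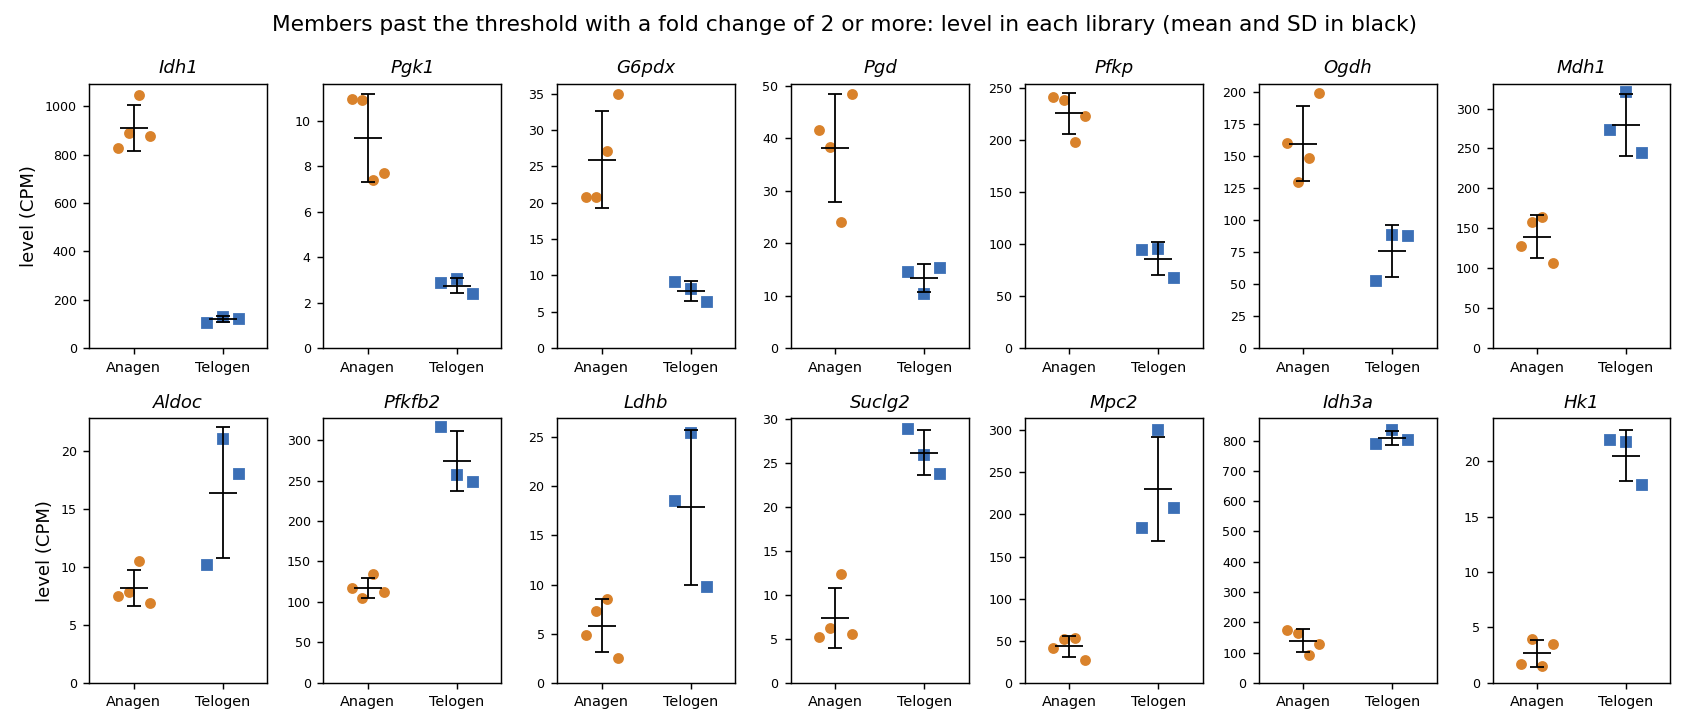
Level in each library (CPM, linear axes from 0, a panel per gene) of the 14 members that passed the test with a fold change of 2 or more, with Anagen left of Telogen and the mean and SD in black. The groups are apart in 13 of the 14 panels and overlap in that of Aldoc.

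Pyruvate enters mitochondria through a carrier of paired subunits, Mpc1 and Mpc2. Mpc2 (NM_027430, mm10 chromosome 1, 165461208 to 165481214) had 41.6, 51.6, 53.6 and 27.02 CPM in Anagen 1 to 4, against 184, 300.3 and 208 CPM in Telogen 1 to 3. The highest Anagen library was at 53.6 CPM and the lowest Telogen library at 184 CPM. Mpc2 was 5.30-fold lower in Anagen (log2 fold change -2.41 ± 0.27 (SE), edgeR adjusted p = 5.21e-05). Over the 13 other fits its log2 fold change ranged from -2.54 to -1.55. Mpc1 was barely read, with 4, 7, 2 and 12 counts in Anagen and 10, 11 and 5 in Telogen, and did not pass (log2 fold change -1.85 ± 0.89 (SE), edgeR adjusted p = 0.106). Its transcript shares 28.99% of its 31-base stretches with other genes, against 1.005% for Mpc2.

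The pyruvate dehydrogenase complex turns pyruvate into acetyl-CoA, and its kinases switch it off by phosphorylation. Pdha1, the catalytic alpha subunit, had 54.96, 46.97, 50.7 and 53.1 CPM in Anagen 1 to 4, against 111, 73.7 and 107 CPM in Telogen 1 to 3. The groups did not overlap, and Pdha1 was 1.88-fold lower (log2 fold change -0.91 ± 0.21 (SE), edgeR adjusted p = 0.00496), though without Anagen 1 and 2 the adjusted p was 0.0538 (range 9.64e-05 to 0.0538). The Pdha1 log2 fold change there was -0.90. Pdhb, the beta subunit (log2 fold change -0.44 ± 0.24 (SE), edgeR adjusted p = 0.146), and Dlat, the acetyltransferase core (log2 fold change 0.18 ± 0.25 (SE), edgeR adjusted p = 0.566), did not pass. Of the kinases, Pdk3 had 30.98, 30.5, 33.4 and 27.7 CPM in Anagen 1 to 4, against 12.6, 14.7 and 20.01 CPM in Telogen 1 to 3. It did not overlap between groups and was 1.94-fold higher (log2 fold change 0.96 ± 0.27 (SE), edgeR adjusted p = 0.0133), a call lost without Anagen 1 and 2 (adjusted p = 0.0872, range 0.00262 to 0.0872). The Pdk3 log2 fold change there was 0.95. Pdk1, a target of hypoxia-inducible factor, had 40.6, 65.05, 55.6 and 62.9 CPM in Anagen 1 to 4, against 46.3, 134 and 135 CPM in Telogen 1 to 3. Telogen 1 lay within the Anagen values, and although Pdk1 was 1.88-fold lower (log2 fold change -0.91 ± 0.34 (SE), edgeR adjusted p = 0.0474), its call was lost in 7 of 13 other fits (range 0.00239 to 0.185). Leaving out any 1 library but Telogen 1 ended it, with adjusted p = 0.117, 0.0612, 0.0925 and 0.0658 without Anagen 1 to 4 in turn, and 0.166 and 0.162 without Telogen 2 and 3. Pdk2 had 43.9, 28.3, 40.8 and 47.3 CPM in Anagen 1 to 4, against 51.5, 24.9 and 24.6 CPM in Telogen 1 to 3 and did not pass (log2 fold change 0.25 ± 0.32 (SE), edgeR adjusted p = 0.546). In all, 1 of 8 genes of pyruvate entry was higher, 3 were lower and 4 did not pass, with a median log2 fold change of -0.67. The share called, 50%, was close to the 49.5% of all genes. Their summed level was 392.1 ± 12.5 CPM in Anagen and 662 ± 87.2 CPM in Telogen, a gap in which Mpc2 took the largest part.

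Isocitrate dehydrogenases held the widest contrast among the TCA cycle genes. Idh1, the cytosolic enzyme that makes NADPH (NM_001111320, mm10 chromosome 1, 65158616 to 65186479), had 826, 889, 1047 and 877 CPM in Anagen 1 to 4, against 105, 129 and 121 CPM in Telogen 1 to 3. The lowest Anagen library stood several times above the highest Telogen library, and Idh1 was 7.67-fold higher (log2 fold change 2.94 ± 0.19 (SE), edgeR adjusted p = 1.29e-06). Idh3a, the catalytic subunit of the mitochondrial NAD enzyme that runs the cycle itself (NM_029573, mm10 chromosome 9, 54586511 to 54604662), had 176, 163, 90.7 and 127 CPM in Anagen 1 to 4, against 789, 836 and 800.5 CPM in Telogen 1 to 3. It was 5.81-fold lower in Anagen, again with no overlap (log2 fold change -2.54 ± 0.23 (SE), edgeR adjusted p = 1.09e-05). Its other subunits did not pass the test. Idh3b had 92.9, 93.6, 112 and 119 CPM in Anagen 1 to 4, against 100.2, 90.3 and 98.7 CPM in Telogen 1 to 3 (log2 fold change 0.12 ± 0.19 (SE), edgeR adjusted p = 0.636). Idh3g lay at 37.6 ± 6.53 CPM in Anagen and 41.6 ± 2.81 CPM in Telogen (log2 fold change -0.15 ± 0.24 (SE), edgeR adjusted p = 0.631). Whether either subunit differs from Idh3a in its change was not tested. Idh2, the mitochondrial NADP enzyme, had 33.4, 32.1, 26.5 and 18.9 CPM in Anagen 1 to 4, against 48.8, 57.2 and 55.7 CPM in Telogen 1 to 3. All its Anagen libraries were below all Telogen libraries, and Idh2 was 1.94-fold lower (log2 fold change -0.96 ± 0.26 (SE), edgeR adjusted p = 0.0107).

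Around these steps the TCA genes went both ways. Cs, citrate synthase, which opens the cycle, had 244, 237, 264 and 351 CPM in Anagen 1 to 4, against 137, 162 and 139.7 CPM in Telogen 1 to 3. The groups did not overlap, and Cs was 1.87-fold higher (log2 fold change 0.90 ± 0.20 (SE), edgeR adjusted p = 0.00338). Ogdh, the first subunit of the 2-oxoglutarate dehydrogenase complex, had 160.4, 130.1, 149 and 199 CPM in Anagen 1 to 4, against 52.7, 88.2 and 87.6 CPM in Telogen 1 to 3. It was 2.10-fold higher without overlap (log2 fold change 1.07 ± 0.25 (SE), edgeR adjusted p = 0.00442), but with GC and length offsets its log2 fold change was 0.44 and the call was lost (adjusted p = 0.142, range 0.000528 to 0.142). Dlst, the second subunit of that complex, did not pass (log2 fold change -0.06 ± 0.29 (SE), edgeR adjusted p = 0.877).

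Succinate-CoA ligase pairs an alpha subunit, Suclg1, with a beta subunit that uses GDP (Suclg2) or ADP (Sucla2). Suclg2 had 5.26, 6.28, 12.4 and 5.50 CPM in Anagen 1 to 4, against 28.8, 25.9 and 23.8 CPM in Telogen 1 to 3. Every Anagen library was below every Telogen library, with Anagen 3 the highest of its group, and Suclg2 was 3.55-fold lower (log2 fold change -1.83 ± 0.36 (SE), edgeR adjusted p = 0.00189). Sucla2 had 132, 136, 129.6 and 145 CPM in Anagen 1 to 4, against 143, 119 and 126 CPM in Telogen 1 to 3 and did not pass (log2 fold change 0.07 ± 0.17 (SE), edgeR adjusted p = 0.771). Nor did Suclg1 (log2 fold change 0.10 ± 0.25 (SE), edgeR adjusted p = 0.754) or Fh1, fumarase (log2 fold change 0.01 ± 0.27 (SE), edgeR adjusted p = 0.983).

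The malate dehydrogenases, partners in the shuttle that carries reducing power into mitochondria, moved in opposite directions. Mdh1, the cytosolic form, had 128, 158, 165 and 107 CPM in Anagen 1 to 4, against 273, 320.5 and 244 CPM in Telogen 1 to 3. All Anagen libraries were below all Telogen libraries, and Mdh1 was 2.004-fold lower (log2 fold change -1.003 ± 0.20 (SE), edgeR adjusted p = 0.00214). Over the 13 other fits its log2 fold change ranged from -1.10 to -0.58. Mdh2, the mitochondrial form, had 148, 137, 155 and 107 CPM in Anagen 1 to 4, against 85.5, 95.4 and 82.03 CPM in Telogen 1 to 3. It was 1.56-fold higher without overlap (log2 fold change 0.64 ± 0.20 (SE), edgeR adjusted p = 0.0209), a call lost without Anagen 1 (adjusted p = 0.0623), Anagen 3 (0.0649) or Anagen 1 and 2 (0.145), with a range of 0.000783 to 0.145. The Mdh2 log2 fold change without Anagen 1 and 2 was 0.58. Over the cycle, 4 of 14 members were higher (Cs, Idh1, Ogdh, Mdh2), 4 were lower (Idh2, Idh3a, Suclg2, Mdh1) and 6 did not pass, a share called of 57.1% against 49.5% of all genes. Their median log2 fold change was 0.04. Their summed level was 2174 ± 99.8 CPM in Anagen and 1966 ± 90.8 CPM in Telogen. Idh1 alone had 910 ± 95.3 CPM in Anagen and 119 ± 12.4 CPM in Telogen, a wider gap than that of the whole sum. The other TCA members, summed without Idh1, were thus lower in Anagen. Idh3a, at 139 ± 38.4 CPM in Anagen and 808 ± 24.6 CPM in Telogen, had a wider gap than that remainder. The lower remainder was therefore not a drop shared by the rest of the cycle.

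In the pentose phosphate pathway, both NADPH-making enzymes of the oxidative branch rose. G6pdx, glucose 6-phosphate dehydrogenase, which commits glucose to the pathway (NM_008062, mm10 chromosome X, 74409486 to 74429161), had 20.8, 20.8, 27.2 and 34.95 CPM in Anagen 1 to 4, against 9.08, 8.15 and 6.34 CPM in Telogen 1 to 3. The lowest Anagen library was more than 2 times the highest Telogen library, and G6pdx was 3.29-fold higher (log2 fold change 1.72 ± 0.32 (SE), edgeR adjusted p = 0.00136). Pgd, the next dehydrogenase of that branch (NM_001081274, mm10 chromosome 4, 149149985 to 149166707), had 41.6, 38.4, 24.1 and 48.5 CPM in Anagen 1 to 4, against 14.6, 10.4 and 15.3 CPM in Telogen 1 to 3. It did not overlap either and was 2.84-fold higher (log2 fold change 1.51 ± 0.32 (SE), edgeR adjusted p = 0.00261). Transketolase and transaldolase, the enzymes of the non-oxidative branch that lead back to glycolysis, did not pass: Tkt had 33.8, 43.9, 50.7 and 28.5 CPM in Anagen 1 to 4, against 29.6, 32.8 and 26.7 CPM in Telogen 1 to 3 (log2 fold change 0.40 ± 0.27 (SE), edgeR adjusted p = 0.242). Taldo1 had 35.6, 44.8, 35.5 and 25.4 CPM in Anagen 1 to 4, against 48.97, 59.8 and 25.96 CPM in Telogen 1 to 3 (log2 fold change -0.35 ± 0.32 (SE), edgeR adjusted p = 0.385). So 2 of 4 members were higher and 0 were lower, where all genes gave 25.8% and 23.7%, so the count was not far from the background. Their median log2 fold change was 0.95, against 0.09 over all genes. Their summed level was 139 ± 6.74 CPM in Anagen and 95.9 ± 19.2 CPM in Telogen.

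The make-up of enzyme sets is seen most plainly as shares, each gene's count per kilobase over the sum of its set in the same library. A share can shift without opposite moves, as where only 1 gene of the set was called. Hk1 made up 8.24 ± 3.46% in Anagen and 56.8 ± 2.95% in Telogen of hexokinase message (SD, n = 4 and n = 3). Its range was 4.99 to 12.7% in Anagen against 53.4 to 59.0% in Telogen, so Hk2 was the main message in Anagen while the pair was nearly even in Telogen. Idh1 made up 96.04 ± 1.10% in Anagen and 62.1 ± 0.587% in Telogen of the NADP isocitrate dehydrogenases. Mdh1 made up 39.97 ± 2.94% in Anagen and 67.5 ± 1.31% in Telogen of malate dehydrogenase, so the larger share was that of Mdh2 in Anagen and that of Mdh1 in Telogen. On raw counts, with no correction for length, Mdh1 held 50.3% in Anagen and 76.02% in Telogen. Suclg2 was a minor beta subunit in both groups, at 3.27 ± 1.57% in Anagen and 11.1 ± 0.683% in Telogen. Aldoa held 95.5 ± 0.467% in Anagen and 85.4 ± 4.33% in Telogen of aldolase, and Ldha held 95.5 ± 2.21% in Anagen and 88.7 ± 3.81% in Telogen of lactate dehydrogenase. Pfkp held 89.6 ± 2.53% in Anagen and 78.8 ± 3.93% in Telogen of phosphofructokinase. The groups did not overlap in any of these 7 shares. Among the pyruvate dehydrogenase kinases, Pdk3 held 35.04 ± 3.78% in Anagen and 18.2 ± 2.71% in Telogen without overlap, while the shares of Pdk1 and Pdk2 overlapped between groups. These shares come from the same counts as the fold changes above and were not tested separately. The enolase share could not be computed, since Telogen 2 had no read of either gene.

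**Figure D3:**
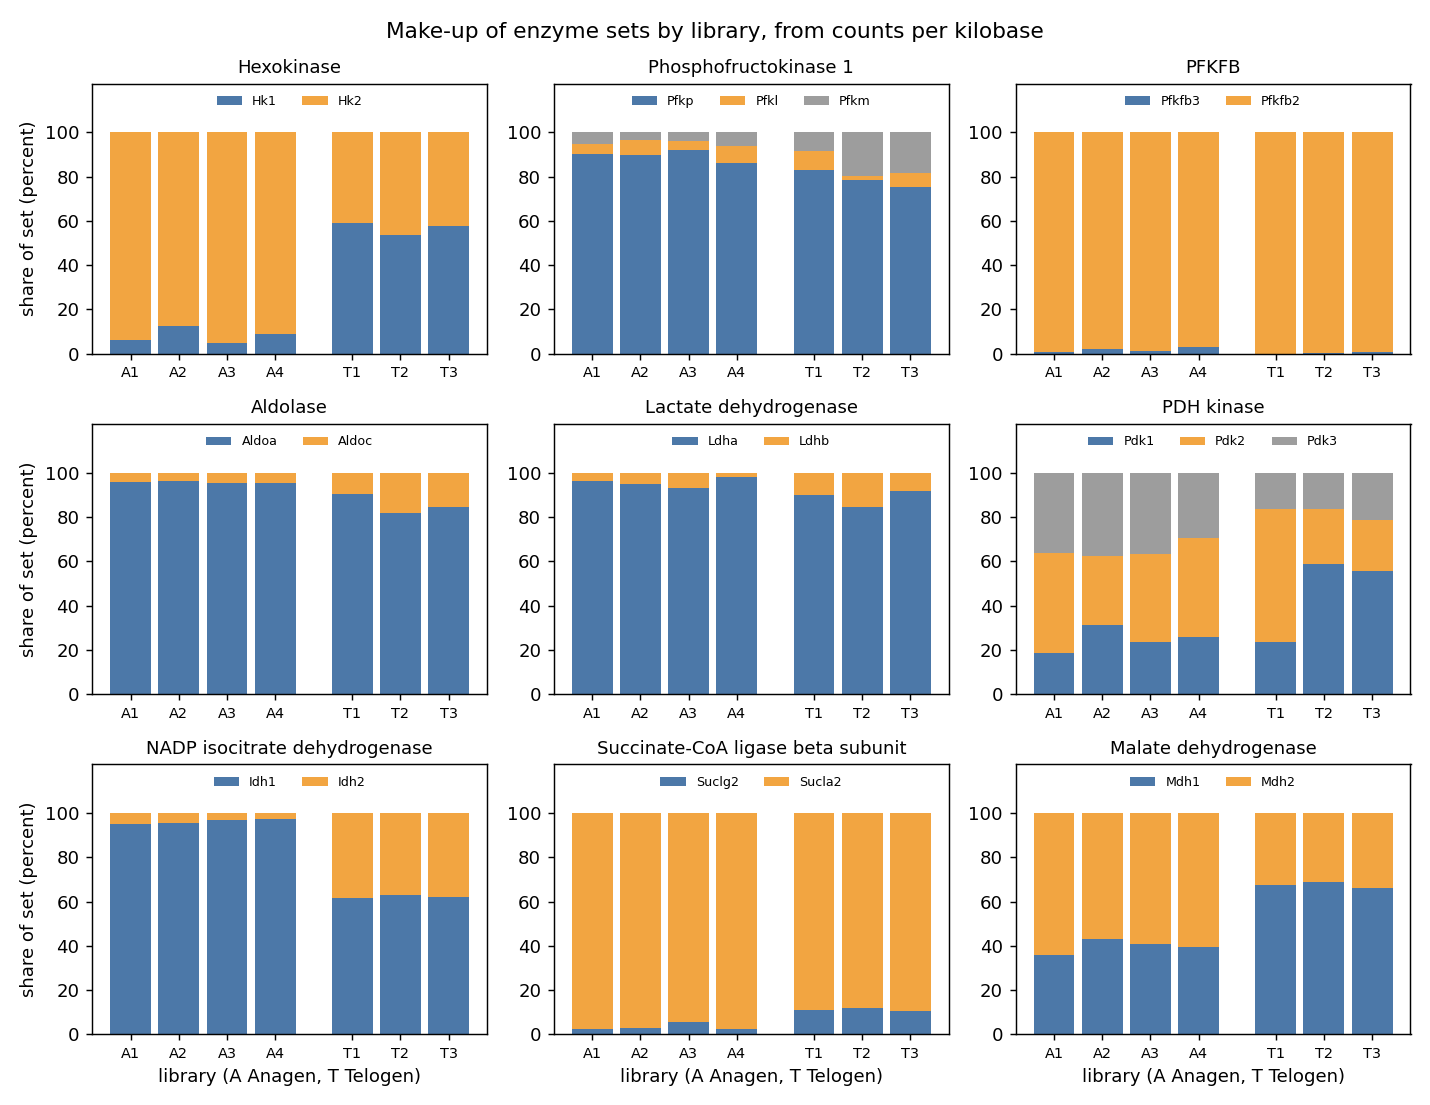
Share (percent) of each gene in its enzyme set in every library, from counts per kilobase, with Anagen 1 to 4 left of Telogen 1 to 3. Hk2 holds most of hexokinase in Anagen and Hk1 the larger share in Telogen, while Mdh2 holds the larger share of malate dehydrogenase in Anagen and Mdh1 in Telogen.

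Levels of different genes were compared per kilobase of transcript. The levels of members with large shares of copied sequence are uncertain, so the ranks hold only for reads as counted. Gapdh, with 84.1% shared, ranked 40 in Anagen and 41 in Telogen, while Idh1 and Idh3a share 0% of their 31-base stretches. In Anagen the members were led by Idh1, followed by Mdh2, Cs, Ldha and Mdh1. In Telogen they were led by Idh3a, followed by Mpc2, Mdh1, Ldha and Mdh2. Idh1 had 397 ± 41.5 CPM per kb in Anagen and 51.7 ± 5.40 CPM per kb in Telogen, rank 1 in Anagen and rank 9 in Telogen among the 45. Idh3a had 57.6 ± 15.9 CPM per kb in Anagen and 335 ± 10.2 CPM per kb in Telogen, rank 9 in Anagen and rank 1 in Telogen. Mpc2 had 50.6 ± 14.2 CPM per kb in Anagen and 268 ± 71.7 CPM per kb in Telogen, rank 11 in Anagen and rank 2 in Telogen. Ldha kept rank 4 in both, with 94.8 ± 6.57 CPM per kb in Anagen and 104 ± 23.8 CPM per kb in Telogen. In Anagen the next 3 after Idh1, which were Mdh2 with 106 ± 16.6 CPM per kb in Anagen and 67.9 ± 5.39 CPM per kb in Telogen, Cs with 96.5 ± 18.5 CPM per kb in Anagen and 51.5 ± 4.87 CPM per kb in Telogen and Ldha, lay within about 1 SD of each other, so their order is not settled. In Telogen, Idh3a and Mpc2 stood closer together than the SD of Mpc2, so their order is not settled either.

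**Figure D4:**
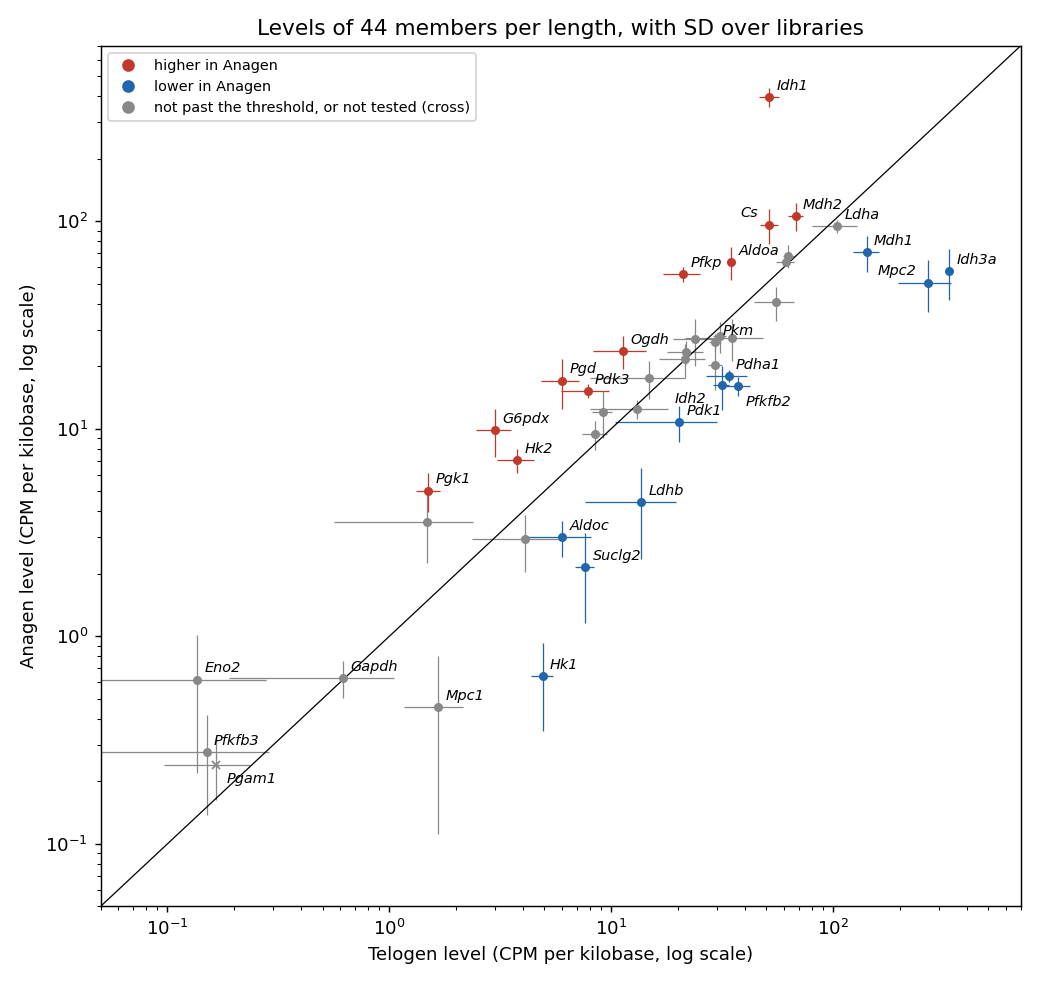
Mean level per kilobase (CPM per kb, log axes) of members in Anagen (vertical axis) against Telogen (horizontal axis), with bars of 1 SD over 4 and 3 libraries, shortened where they would reach 0, and the line of equal levels. Idh1 lies far above the line, Idh3a, Mpc2 and Hk1 far below it, and Ldha on it, while Eno1 is left out because it had 0 counts in Anagen.

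Other genes of the same pathways were counted from lists that do not overlap the 45, to be read against 25.8% higher, 23.7% lower and a median log2 fold change of 0.09 over all genes tested. Transporters of glucose and lactate gave 3 higher and 2 lower of 11 tested (median log2 fold change 0.11). Slc16a7, a monocarboxylate transporter of high affinity for pyruvate, averaged 261 ± 66.8 CPM in Anagen and 30.7 ± 8.13 CPM in Telogen (log2 fold change 3.09 ± 0.29 (SE), edgeR adjusted p = 1.4e-05). Emb, embigin, a chaperone of such transporters, went the other way, with 45.1 ± 17.6 CPM in Anagen and 387 ± 71.4 CPM in Telogen (log2 fold change -3.10 ± 0.30 (SE), edgeR adjusted p = 1.67e-05). Slc2a8, an intracellular sugar transporter, was higher at 15.2 ± 1.496 CPM in Anagen and 2.66 ± 1.75 CPM in Telogen (log2 fold change 2.53 ± 0.52 (SE), edgeR adjusted p = 0.00243). Slc16a1, the widespread lactate transporter, had 12.2, 20.4, 153 and 43.5 CPM in Anagen 1 to 4, against 6.23, 8.95 and 12.1 CPM in Telogen 1 to 3. It was higher by the test (log2 fold change 2.66 ± 0.78 (SE), edgeR adjusted p = 0.0163), but Anagen 3 alone carried much of the size. Without it the log2 fold change was 1.48 (adjusted p = 0.0375), and without Telogen 1 or Telogen 2 the call was lost (adjusted p = 0.0601 and 0.0566). Slc2a1, the main glucose transporter of keratinocytes, was named after its values were seen and did not pass (log2 fold change 0.11 ± 0.19 (SE), edgeR adjusted p = 0.654).

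Among 8 other genes around pyruvate dehydrogenase, 2 were higher and 3 were lower. Pdk4, another kinase of the complex that is known for its induction by fasting, had 28.6, 30.8, 44.4 and 31.9 CPM in Anagen 1 to 4, against 0, 0 and 0.793 CPM in Telogen 1 to 3. Its reads numbered 397, 559, 689 and 446 in Anagen 1 to 4 and 0, 0 and 4 in Telogen 1 to 3, so it was close to absent from Telogen (log2 fold change 7.08 ± 0.73 (SE), edgeR adjusted p = 2.66e-05). The fitted size rests on the 4 counts of Telogen 3, and without that library the log2 fold change was 11.70. Pdp2, a phosphatase that reactivates the complex, was higher at 3.76 ± 1.12 CPM in Anagen and 0.317 ± 0.419 CPM in Telogen (log2 fold change 3.58 ± 0.97 (SE), edgeR adjusted p = 0.0105), and Pdp1, another such phosphatase, was lower at 61.2 ± 12.1 CPM in Anagen and 181 ± 37.6 CPM in Telogen (log2 fold change -1.57 ± 0.23 (SE), edgeR adjusted p = 0.000262). Without Telogen 3 the log2 fold change of Pdp2 was 5.34. Dld, the subunit shared by several dehydrogenase complexes, was lower at 184 ± 30.1 CPM in Anagen and 348 ± 68.5 CPM in Telogen (log2 fold change -0.92 ± 0.20 (SE), edgeR adjusted p = 0.00344), a call lost with GC and length offsets and without Anagen 1 and 2. Of 11 other glycolysis enzymes, 2 were higher and 0 lower. Pfkfb1 had 70 counts over Anagen and 0 over Telogen, which makes it at least 6.42-fold higher against a floor of 3 counts over the group. Adpgk, which phosphorylates glucose with ADP, averaged 25.4 ± 13.01 CPM in Anagen and 9.76 ± 1.93 CPM in Telogen (log2 fold change 1.38 ± 0.40 (SE), edgeR adjusted p = 0.0153), a call lost without Telogen 1.

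Further TCA cycle and glutamate genes gave 3 higher and 7 lower of 17 tested (median log2 fold change 0.02), and summed to 1116 to 1194 CPM in Anagen and 3019 to 3533 CPM in Telogen. Glud1, which feeds glutamate carbon into the cycle, averaged 201 ± 7.21 CPM in Anagen and 1002 ± 112 CPM in Telogen (log2 fold change -2.32 ± 0.16 (SE), edgeR adjusted p = 2.11e-06). It was lower in all 4 Anagen libraries than in any Telogen library. Succinate dehydrogenase joins the cycle to the respiratory chain. Its genes Sdhd, with 137 ± 27.3 CPM in Anagen and 827 ± 265 CPM in Telogen (log2 fold change -2.59 ± 0.25 (SE), edgeR adjusted p = 1.51e-05), and Sdhb, with 31.5 ± 9.26 CPM in Anagen and 149 ± 38.4 CPM in Telogen (log2 fold change -2.24 ± 0.28 (SE), edgeR adjusted p = 9.79e-05), were lower in Anagen. Sdhc, of the same enzyme, was lower too, with 124 ± 6.66 CPM in Anagen and 197 ± 7.10 CPM in Telogen (log2 fold change -0.67 ± 0.17 (SE), edgeR adjusted p = 0.00666). Sdha, its flavin subunit, did not pass (log2 fold change 0.20 ± 0.21 (SE), edgeR adjusted p = 0.455). Sdhc and Sdha were named after their values were seen.

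Other pentose phosphate genes gave 1 higher and 4 lower of 8 tested. H6pd, which runs the oxidative steps inside the endoplasmic reticulum, had 25.6, 18.9, 12.6 and 22.9 CPM in Anagen 1 to 4, against 1.07, 0 and 3.57 CPM in Telogen 1 to 3 (log2 fold change 3.74 ± 0.79 (SE), edgeR adjusted p = 0.00268). It did not overlap, although its size depended on Telogen libraries with few counts, the log2 fold change being 3.13 without Telogen 2 and 5.26 without Telogen 3. Rpia, which makes ribose 5-phosphate, was lower at 7.92 ± 2.37 CPM in Anagen and 20.6 ± 3.31 CPM in Telogen (log2 fold change -1.38 ± 0.34 (SE), edgeR adjusted p = 0.00615). Prps1 and Prps2, which make phosphoribosyl pyrophosphate from it, were also lower (log2 fold change -1.08 ± 0.26 (SE), edgeR adjusted p = 0.00555 for Prps1 and log2 fold change -0.66 ± 0.18 (SE), edgeR adjusted p = 0.00977 for Prps2), but both calls were lost with GC and length offsets, and that of Prps2 without Anagen 1 and 2.

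Glycogen and gluconeogenesis genes gave 4 higher and 4 lower of 13 tested (median log2 fold change 0.26). Pygl, the liver-type glycogen phosphorylase, averaged 45.1 ± 14.7 CPM in Anagen and 343 ± 106 CPM in Telogen (log2 fold change -2.93 ± 0.30 (SE), edgeR adjusted p = 2.38e-05), and Gbe1, the branching enzyme, 17.8 ± 3.88 CPM in Anagen and 83.99 ± 7.47 CPM in Telogen (log2 fold change -2.24 ± 0.24 (SE), edgeR adjusted p = 3.87e-05). G6pc3, the widespread glucose 6-phosphatase, was higher at 59.4 ± 7.95 CPM in Anagen and 17.998 ± 2.04 CPM in Telogen (log2 fold change 1.72 ± 0.24 (SE), edgeR adjusted p = 0.000225).

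Hypoxia regulators and their known targets gave 5 higher and 1 lower of 14 tested (median log2 fold change 0.86). Hif1a, the oxygen-regulated factor that drives glycolysis genes in many cells, had 1413, 1204, 2244 and 2790.1 CPM in Anagen 1 to 4, against 644, 455 and 456 CPM in Telogen 1 to 3. The groups did not overlap (log2 fold change 1.88 ± 0.30 (SE), edgeR adjusted p = 0.000517), and the spread within Anagen was wide. Epas1, its close relative, was higher at 32.4 ± 6.89 CPM in Anagen and 3.19 ± 1.25 CPM in Telogen (log2 fold change 3.34 ± 0.37 (SE), edgeR adjusted p = 4.61e-05), as was Car12, a carbonic anhydrase, at 204 ± 35.6 CPM in Anagen and 15.03 ± 6.03 CPM in Telogen (log2 fold change 3.77 ± 0.32 (SE), edgeR adjusted p = 7.28e-06). Bnip3, a mitophagy receptor that hypoxia induces in many cells, was lower at 0.712 ± 0.443 CPM in Anagen and 10.9 ± 3.39 CPM in Telogen (log2 fold change -3.91 ± 0.69 (SE), edgeR adjusted p = 0.000952). RNA levels do not measure the protein of Hif1a, whose amount is set largely by its breakdown.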

How the data were processed

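RNA-seq values of 7 samples were analysed. The deposited table held raw counts of reads per gene and RPKM values, per the file headers. The RPKM values equalled those computed from the authors' counts and gene lengths in 107905 of 107905 values (relative tolerance 1e-10), so only the counts were used. Per the submitters' processing notes, reads were placed on build mm10. For the aligner, the read counter, strand and reads with several matches, no setting is given in the sources used here. Starts in the table are 0-based and are printed 1-based.

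Genes with too few counts were left out with edgeR's filter (minimum count 10, minimum total 15), which kept 12266 of 15415 genes. Groups were compared with edgeR's quasi-likelihood test (edgeR 4.0.16, limma 3.58.1, R 4.3.3) with TMM factors, robust fits, the 2 groups and no covariate. Adjusted p-values are Benjamini-Hochberg values over every gene in the fit, called under 0.05. Log2 fold changes are Anagen minus Telogen, and their SE is the size of the change over the square root of F. Counts of 3 served as the floor where a group had no reads. Totals of 5097457 to 17042690 counts per sample set the precision, and intervals and floors cover only what the counts show.

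The alternatives were RLE factors, DESeq2 1.42.0, no filter, a required fold change of 2, offsets for GC content and length (GC found for 99.42% of genes from GENCODE M21), a replicate block, leaving out Anagen 1 and 2, and leaving out each sample. The main fitting code was tested on simulated data. Promoters came from RefSeq (GRCm38.p6).

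All 45 members could be named. Values per sample are given for those past the threshold and for isozyme sets. From each other pathway list, at most the 4 genes past the threshold with the smallest adjusted p are named, and exceptions are stated. Some genes that this rule would name are not reported here. Markers of other cell types are given as list sums. The members and all lists were chosen with earlier results of these data known, so their calls are a description of these samples.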

Additional observations from a re-analysis of the deposited data

Results flagged for a closer look

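Of 72 values of members and shares screened within the 4 Anagen libraries, 4 had 1 library far from the rest. A screen of this kind flags about 1 in 20 groups by chance. The groups of 3 Telogen libraries were not screened.

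All 4 concern succinate-CoA ligase. Suclg2 was at 12.4 CPM in Anagen 3, where the nearest other Anagen library had 6.28 CPM, and its share of the beta subunits was 5.604% in Anagen 3 against 2.79% in the nearest library. The share of Sucla2, which mirrors it, was 94.4% in Anagen 3 and 97.2% in the nearest library. Suclg1, the alpha subunit, was at 26.5 CPM in Anagen 4, below the nearest Anagen library at 34.7 CPM. Without Anagen 3, Suclg2 remained called as lower.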

How the results depend on the processing

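Counts of members moved as follows. With a fold change of 2 or more required, 6 members were higher, with 2 in glycolysis, 0 in pyruvate entry and 2 in the TCA cycle, and 1 member of pyruvate entry was lower. Without Anagen 1 and Anagen 2, 7 members were higher and 7 were lower, where 37% of all genes tested were called. In that setting glycolysis had 2 higher and 2 lower, and pyruvate entry had 0 higher and 1 lower. Leaving out 1 library at a time gave 10 to 12 members higher and 8 to 11 lower, with 4 to 5 higher and 2 to 4 lower in glycolysis, the lowest being 2 without Telogen 2. The labels do not say whether a replicate number found in both groups marks a pair, so the main fit did not pair samples. The correlations of same-numbered deviations were 0.012, 0.037 and -0.0063, and 3 of 6 samples correlated best with their own number. So few shared numbers cannot decide whether the samples were paired. The fit with a replicate block gave 10 members higher and 9 lower, with 2 lower in glycolysis, and did not call Hk2, Aldoc or Ldhb (adjusted p = 0.0674, 0.1003 and 0.0614), nor Adpgk (0.0647).

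Signs turned only for members that did not pass the main test. With GC and length offsets the log2 fold change was -0.10 for Gpi1, 0.13 for Ldha, -0.11 for Pdk2, 0.26 for Pdhb, 0.47 for Idh3g and 0.22 for Taldo1. Without Anagen 1 and 2, that of Gpi1 was -0.037. With RLE factors it was -0.0259 for Gapdh and -0.055 for Fh1, with DESeq2 -0.0260 and -0.0556, and with the block -0.0063 for Dlat, 0.053 for Dlst and -0.042 for Fh1. Leaving out 1 library at a time gave -0.44 to 0.42 for Gapdh, -0.29 to 0.04 for Ldha, -0.0090 to 0.36 for Dlat, -0.25 to 0.30 for Dlst and -0.15 to 0.19 for Fh1. The causes were not tested. Shares within enzyme sets computed on raw counts moved with gene length, for example to 49.8% for Hk1 in Telogen. Other pathway genes called numbered 34 to 43 over these settings, against 41.

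GC and length offsets also called Pkm as lower (adjusted p = 0.0136) and Idh3b, Suclg1 and Sucla2 as higher (0.0459, 0.0164 and 0.0191). DESeq2 called Pfkl as higher and Tpi1 as lower (0.0442 and 0.0468), and edgeR without Telogen 1 called Pfkl (0.0238). Over these alternatives 37 to 53.2% of all genes were called. Without the filter on low counts the median log2 fold change of all genes was 0.22, against 0.09 with it. Few reads in both groups limit what can be said of Gapdh, Eno1, Pgam1, Mpc1 and Pfkfb3.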
